A study of Mus musculus with 6 samples.

Results

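Eph receptors and ephrins were read from 6 RNA-Seq libraries of cultured cells from the sympathetic chains of male mice, 3 weeks old by the study's methods. The set described here holds 10 genes of the 20173 in the count table: the A-class receptors Epha2, Epha4, Epha5 and Epha7, the B-class receptors Ephb2 and Ephb3, the A-class ephrins Efna4 and Efna5, and the B-class ephrins Efnb1 and Efnb2. They were chosen by name with their measured levels in view, Epha5 for its abundance, so the levels and the differences between the groups are given as a description. The control group was 3 libraries from Slit2fl/fl mice (SLIT2f/f in the labels), which carry the floxed allele without deletion, and the other was 3 libraries from Slit2th mice (SLIT2-knockout in the labels), in which Cre under the tyrosine hydroxylase promoter deletes the floxed Slit2 in cells that use this promoter. The labels call the source sympathetic ganglion and the cell type neuron, whereas the study's methods describe cells cultured in B27 medium for 4 to 5 days and also speak of dorsal root neurons. Controls are the Slit2fl/fl libraries and deletion stands for Slit2th. How many mice went into a culture is not given in the sources used here.

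Ephrins are ligands held at the cell surface, A-class ephrins by a lipid (GPI) anchor and B-class ephrins by a transmembrane segment, and Eph receptors are the receptor tyrosine kinases that bind them on a neighbouring cell. Binding sends a signal into both cells, forward through the receptor and in reverse through the ephrin, and the usual outcome is repulsion, retraction or sorting of the cells. The family is known for mapping axons onto their targets, for steering neural crest cells, from which sympathetic neurons and their glia derive, and for sorting Schwann cells from fibroblasts in injured nerve. Slit2 is a secreted repellent of the same general kind that acts through Robo receptors.

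The promoter windows of 3 genes are shown because the results below turn on them: Epha5, whose level stood far above that of every other family gene, and Efna4 and Efna5, the members of the set that were lowest in Slit2th relative to the controls. Each window is 300 bases across a RefSeq transcription start on GRCm38.p6, most of them upstream, and windows were found for 10 of the 10 genes. Capitals mark matches, on either strand, to the GC box GGGCGG, the CCAAT box CCAAT, the TATA box TATAAA and ACAAAG, a core that SOX factors can bind. No match overlapped another.
Epha5, chr5:84417333-84417632, minus strand: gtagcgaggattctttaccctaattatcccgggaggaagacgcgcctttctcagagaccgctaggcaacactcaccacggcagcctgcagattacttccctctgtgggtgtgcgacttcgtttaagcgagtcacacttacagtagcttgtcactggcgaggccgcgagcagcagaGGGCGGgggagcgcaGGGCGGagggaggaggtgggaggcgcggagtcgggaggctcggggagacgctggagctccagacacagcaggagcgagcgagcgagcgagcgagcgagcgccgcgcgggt
Efna4, chr3:89337979-89338278, minus strand: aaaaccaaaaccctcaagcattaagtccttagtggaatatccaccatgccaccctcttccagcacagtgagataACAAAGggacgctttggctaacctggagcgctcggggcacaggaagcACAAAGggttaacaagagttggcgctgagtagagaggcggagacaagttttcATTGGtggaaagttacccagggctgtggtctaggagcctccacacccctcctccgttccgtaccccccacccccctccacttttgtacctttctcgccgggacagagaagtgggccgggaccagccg
Efna5, chr17:62881268-62881567, minus strand: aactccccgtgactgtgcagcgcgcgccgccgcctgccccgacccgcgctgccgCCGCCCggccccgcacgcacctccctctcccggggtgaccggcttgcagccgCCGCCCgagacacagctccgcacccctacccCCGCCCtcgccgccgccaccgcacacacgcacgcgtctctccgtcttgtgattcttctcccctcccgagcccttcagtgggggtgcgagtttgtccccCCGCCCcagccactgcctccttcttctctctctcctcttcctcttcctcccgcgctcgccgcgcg

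The Epha5 window held 2 GC boxes and 30 CpG dinucleotides, the Efna5 window held 4 GC boxes and 38 CpG dinucleotides, and neither held any of the other 3 motifs. The Efna4 window differed in composition, with 11 CpG dinucleotides, no GC box, 1 CCAAT box and 2 ACAAAG matches. Of all 32851 windows, 35.7% held GGGCGG, 37.4% CCAAT, 13.6% TATAAA and 18.7% ACAAAG, and the median window held 7 CpG dinucleotides. Among the 10 genes, ACAAAG was found in the Efna4 window only and TATAAA in the Efnb2 window only. These matches describe letters in the sequence and were not tested for binding.

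Total counts were 1255939 to 3155406 per library, and 3 counts, taken as the floor of detection, were worth 0.961 to 2.65 CPM (counts scaled to a common library size with TMM normalization), a limit that covers counting error only. Slit2 stood at 44.5, 55.1 and 43.8 CPM in control replicates 1, 2 and 3 and at 15.0, 11.5 and 15.2 CPM in Slit2th. Every Slit2th library was lower, which is the direction the labels give. Its log2 fold change was -1.78, with an adjusted p of 0.422 in edgeR's quasi-likelihood test. The labelled cell type was borne out in part at most. Th had no count in any library, and 10 of the 17 sympathetic neuron markers in the table stayed under 3 counts in every library. Those with the most counts over all libraries were Tubb3 (1710), Uchl1 (1153), Stmn2 (329), Gap43 (235) and Slc18a2 (123). The study reports axons stained for TH protein in its cultures of sympathetic neurons. The 17 markers summed to 199.6 to 593 CPM per library, against 4415 to 5112.5 CPM for 11 markers of Schwann and satellite glia, none of them without a count. The levels below are those of whole cultures with high glia markers, and in such bulk samples fewer cells of a type and less RNA per cell cannot be told apart. Replicate 1 of both groups stood apart, with correlations of log2 CPM over genes of 0.841 to 0.868 with the other libraries of its own group, against 0.937 and 0.965 between replicates 2 and 3. The libraries did not sort by group throughout. Slit2fl/fl replicate 2 was at 0.947 and 0.944 with Slit2th replicates 2 and 3, above its 0.937 with Slit2fl/fl replicate 3. Slit2fl/fl replicate 3 was at 0.917 and 0.915 with the same Slit2th libraries. Replicate 1 of Slit2fl/fl and replicate 1 of Slit2th were at 0.817.

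All 10 genes passed the filter for testing, which asks for 1 CPM or more in 3 libraries or more, and 8 of them reached 3 counts in all 6 libraries. Efna4 reached 3 counts in 5 libraries and Epha2 in 4. Epha5 alone made up 91.5% to 97.5% of all counts of the 22 family genes in a library, and 0.294% to 0.795% of all counts in the library. It ranked between 11 and 33 among all 20173 genes by count. Per kilobase of exon it ranked between 99 and 281, since its merged exons span 16739 bases.

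Per exon length, the means of the 10 genes fell into 3 tiers. Epha5 stood at a mean of 281 CPM per kilobase over the 6 libraries (range 175 to 527), 23.2 times the next gene, Efnb1, at 12.1 (range 8.07 to 17.8). The ephrins and Ephb3 made up the middle tier: Efna5 had a mean of 10.8, Ephb3 of 9.39, Efna4 of 5.36 and Efnb2 of 4.67 CPM per kilobase. Ephb2, Epha4, Epha7 and Epha2 followed at 0.883, 0.877, 0.576 and 0.570 CPM per kilobase. Neighbours within the middle and the lowest tier overlapped in their ranges, while Epha5 did not overlap Efnb1, nor Efnb2 (lowest 1.29) Ephb2 (highest 1.25). The middle and the lowest tier overlapped through Efna4, which went down to 0.552 in Slit2th replicate 1, under the highest library of each of the 4 low receptors. With the longest annotated transcript as the length in place of merged exons, Epha5 rose to 641 CPM per kilobase and the order changed within the tiers but not between them. Efna2, an ephrin outside the set, had a mean of 4.26 CPM per kilobase (range 2.70 to 6.14), next to Efnb2. Ephb1, a receptor outside the set, had a mean of 1.25 (range 0.378 to 3.33), between Efnb2 and Ephb2 and overlapping both. The step between the middle and the lowest tier is therefore one of the chosen genes, not of the whole family.

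**Figure D1:**
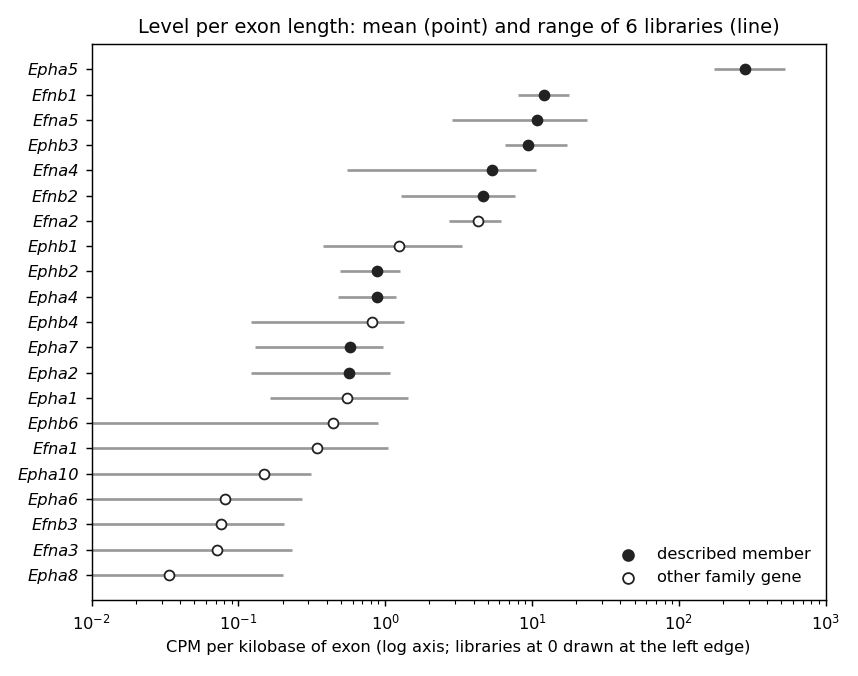
Level of 21 family genes in CPM per kilobase of merged exon on a log axis, with the mean (point) and the range (line) of all 6 libraries, black for the 10 described genes and white for the other family genes with any count; Epha3 had none. Epha5, at 281, is the only gene above 23.7 in any library.

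Among the A-class receptors, Epha5 (ENSMUSG00000029245) encodes a receptor that binds ephrin-A ligands. It lies on the minus strand of chromosome 5 (GRCm38, 84054761 to 84417382), free of exons of other genes. The raw counts were 10506, 4514 and 7186 in control replicates 1, 2 and 3 and 9990, 9344 and 8051 in Slit2th. After normalization these were 3364, 2926 and 4086 CPM in the controls against 8816, 4458 and 4544 CPM after deletion, or 3459 ± 586 against 5940 ± 2492 CPM (SD, n = 3 each). All Slit2th libraries exceeded all controls, but Slit2th replicate 1 lay far above the rest, and replicates 2 and 3 lay close to the highest control. The 11 glia markers, S100b the highest, summed to 4415, 4621 and 5109.6 CPM in the controls and to 5112.5, 4629 and 4506 CPM after deletion, and these sums overlapped between the groups. Of the 10 glia markers that were tested, 3 were above 0 and 7 below on the log2 fold change scale (median -0.35). Single glia markers thus moved in opposite directions under the sums. Mean levels in the controls and after deletion were 909 and 1769 CPM for Cdh19 and 149 and 286 CPM for Foxd3. For S100b they were 1910 and 1268 CPM, and for Mbp 424 and 116 CPM. Fibroblast markers had 8 of 8 tested above 0 (median 0.72) and macrophage markers 9 of 10 (median 2.17), with macrophage sums that did not overlap between the groups. The part of these cell types in the Epha5 difference was not tested.

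Epha4, a receptor that binds ephrins of both classes, was low, with 12, 10 and 8 counts in the controls and 10, 19 and 17 after deletion. Its level was 3.84, 6.48 and 4.55 CPM in the controls against 8.83, 9.06 and 9.59 CPM after deletion. The groups did not overlap, and the 3 Slit2th libraries were close together. Epha7, best known from cortical and retinal axon mapping, stood at 1.28, 7.78 and 5.12 CPM in the controls against 7.06, 9.54 and 3.39 CPM after deletion. Epha2, a receptor typical of epithelia, had 1 to 9 counts per library, or 0.569 to 3.89 CPM in the controls against 0.883 to 5.08 CPM in Slit2th. Both overlapped between the groups.

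Of the B-class receptors, which bind ephrin-B ligands, Ephb3 was the higher per exon length. It stood at 45.5, 58.3 and 43.8 CPM in the controls against 114.7, 57.3 and 54.7 CPM after deletion, so Slit2th replicate 1 was high while replicates 2 and 3 lay within the control range. Ephb2, the receptor named in Schwann cell sorting, stood at 15.1, 7.13 and 13.1 CPM in the controls against 6.18, 9.54 and 15.8 CPM after deletion. Its groups overlapped throughout.

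Among the A-class ephrins, Efna5 (ENSMUSG00000048915) encodes ephrin-A5, a repellent ligand in axon mapping. It lies on the minus strand of chromosome 17 from 62604184 to 62881317. Its counts were 116, 92 and 168 in the controls against 13, 64 and 47 in Slit2th. These were 37.1, 59.6 and 95.5 CPM in the controls against 11.5, 30.5 and 26.5 CPM after deletion, with means of 64.1 ± 29.4 and 22.8 ± 10.1 CPM (SD, n = 3 each). All Slit2th libraries lay under all controls, Slit2th replicate 1 the lowest of all. The fitted level was 2.77-fold lower in Slit2th.

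Efna4 (ENSMUSG00000028040) encodes ephrin-A4 and lies on the minus strand of chromosome 3 from 89333390 to 89338028, in the same stretch as Efna3 and Efna1. Its counts were 44, 12 and 30 in the controls against 1, 9 and 13 in Slit2th, so Slit2th replicate 1 was under the floor. Its level was 14.1, 7.78 and 17.1 CPM in the controls against 0.883, 4.29 and 7.34 CPM after deletion. The groups did not overlap, although Slit2fl/fl replicate 2 and Slit2th replicate 3 nearly met. The antisense gene 4731419I09Rik overlaps 168 of the 1599 exon bases of Efna4. The strand setting of the counting is not given in the sources used here.

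The B-class ephrins did not separate the groups. Efnb1, an X-linked gene whose product is a ligand of the EphB receptors, stood at 61.5, 40.2 and 27.9 CPM in the controls against 44.1, 38.2 and 38.9 CPM after deletion, so the Slit2th libraries lay inside the control range. Efnb2, whose product marks arterial endothelium among other cells, stood at 14.4, 32.4 and 43.8 CPM in the controls against 8.83, 40.1 and 52.5 CPM after deletion. In each group its replicate 1 was the lowest and its replicate 3 the highest library. The 8 endothelial markers summed to only 13.2 to 34.3 CPM per library.

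**Figure D2:**
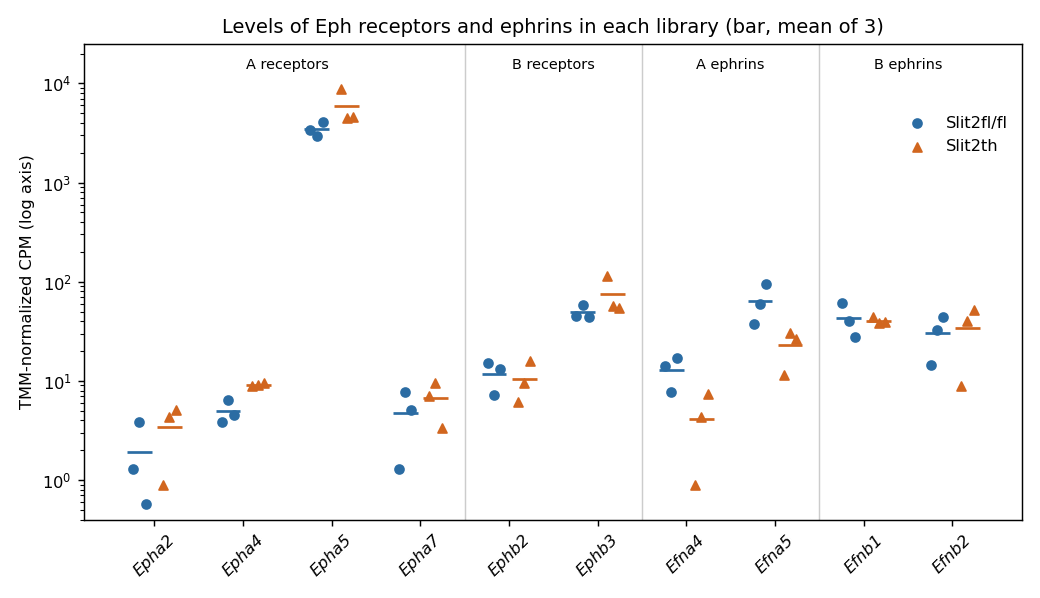
TMM-normalized CPM of the 10 genes on a log axis in each of the 3 Slit2fl/fl (circles) and 3 Slit2th (triangles) libraries, in order of replicate number from left to right, with the mean of each group as a bar. Epha5 lies at 2926 to 8816 and no other gene exceeds 114.7; Efna4 and Efna5 are lower and Epha4 and Epha5 higher in every Slit2th library.

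Values within a library do not depend on the normalization. Of the counts on the 4 ephrins of the set, which leave out Efna2, the A-class pair Efna4 and Efna5 took 40.3%, 48.1% and 61.1% in control replicates 1, 2 and 3 and 18.9%, 30.8% and 27.0% in Slit2th. All Slit2th shares were below all Slit2fl/fl shares. The 95% Wilson intervals, which cover counting error only, just met: that of Slit2fl/fl replicate 1 began at 35.6% and that of Slit2th replicate 2 ended at 36.9%. Set against the receptor, there were 11.0, 20.4 and 23.4 Efna5 counts per 1000 Epha5 counts in the controls against 1.30, 6.85 and 5.84 in Slit2th. Efna4 ran at 4.19, 2.66 and 4.17 per 1000 Epha5 counts in Slit2fl/fl and at 0.100, 0.963 and 1.61 in Slit2th. For both ephrins the groups were apart also without replicate 1. Since the numerator and the denominator were chosen with the group values known, these ratios describe the libraries and carry no test.

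**Figure D3:**
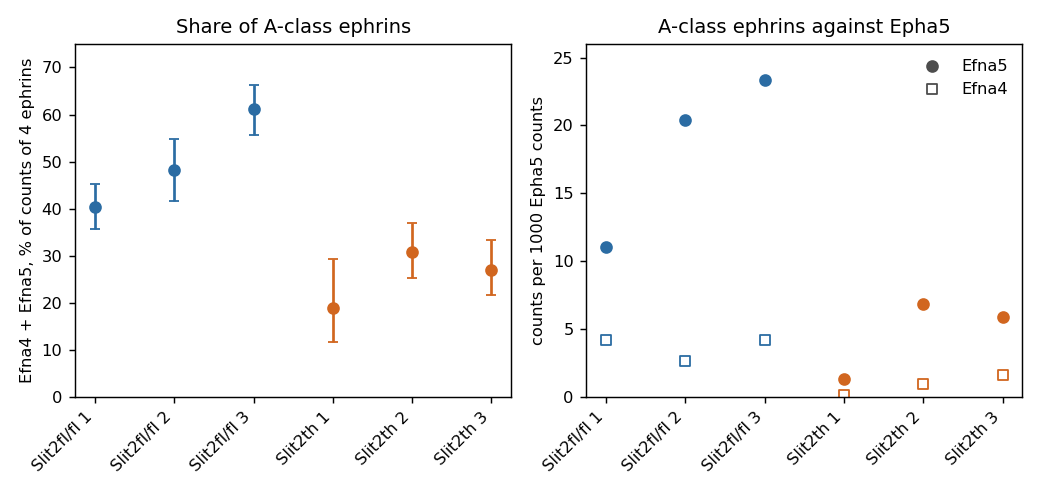
Left, the share of A-class ephrins (Efna4 plus Efna5) among the counts of the 4 ephrins of the set in each library, in percent with 95% Wilson intervals; right, counts of Efna5 (filled circles) and Efna4 (open squares) per 1000 Epha5 counts. The share is 40.3% to 61.1% in Slit2fl/fl (blue) and 18.9% to 30.8% in Slit2th (orange).

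The comparison of Slit2th with Slit2fl/fl asks whether loss of Slit2 goes with other levels of guidance genes. None of the 10 genes passed an adjusted p of 0.05 in edgeR's quasi-likelihood test over all 12152 tested genes, and neither did any other gene (0% called). At an unadjusted p under 0.05, 1309 genes stood out, and DESeq2 and edgeR's exact test called 34 and 17 genes after adjustment. None of the 10 was among the 17, and none of the 6 members to which DESeq2 gave an adjusted p was among the 34. DESeq2 gave none for Epha2, Epha4, Epha7 and Efna4. Efna5 and Efna4 were the members with an unadjusted p under 0.05, both lower, where 6.78% of all tested genes were lower and 3.99% higher by that rule. Groups that did not overlap were found for 2 members higher (Epha4 and Epha5) and 2 lower (Efna4 and Efna5), where 8.74% of all tested genes were higher and 9.72% lower without overlap.

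The log2 fold change was -1.47 for Efna5 (standard error 0.50, 95% interval -2.60 to -0.33, adjusted p = 0.422) and -1.57 for Efna4 (standard error 0.66, 95% interval -3.06 to -0.08, adjusted p = 0.459). For Epha5 it was 0.78 (standard error 0.40, 95% interval -0.11 to 1.67, adjusted p = 0.493), and for Epha4 it was 0.90 (standard error 0.49, 95% interval -0.21 to 2.01, adjusted p = 0.509). The remaining receptors had values of 0.93 (Epha2), 0.62 (Ephb3), 0.55 (Epha7) and -0.16 (Ephb2), and the B-class ephrins of 0.18 (Efnb2) and -0.10 (Efnb1), with adjusted p-values of 0.559 to 0.926. Of the 6 receptors 5 had a positive value, with a median of 0.70. Of the 4 ephrins 3 had a negative value, with a median of -0.78, Efnb1 among them at only -0.10. Over all tested genes 5805 values were positive and 6347 negative, with a median of -0.05. The signs and medians of the members are those of a chosen list, not a test. The intervals were wide, and a difference of 2-fold in either direction lies within the interval for Epha2, Epha7, Ephb2 and Efnb2.

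**Figure D4:**
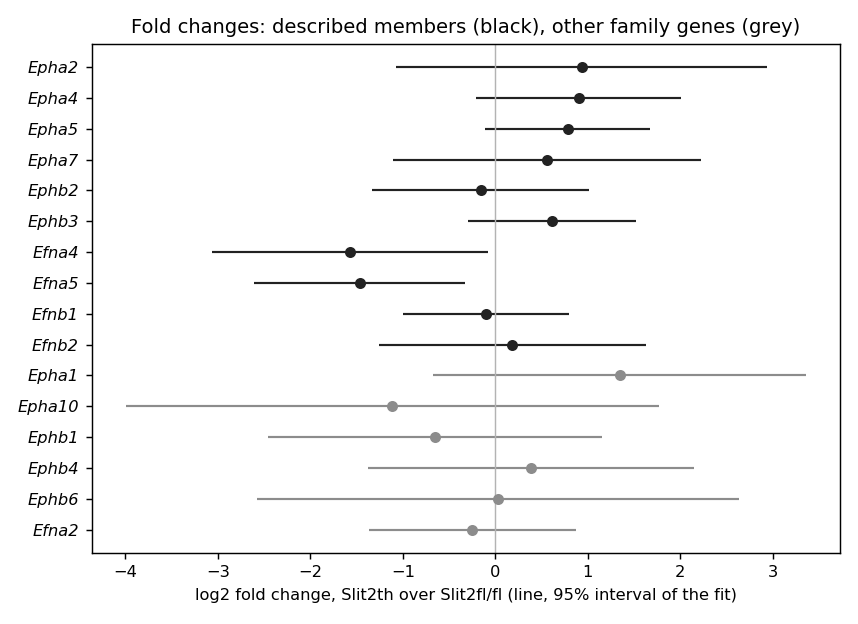
Log2 fold change of Slit2th over Slit2fl/fl with its 95% interval from the edgeR fit, for the 10 described genes (black) and the 6 other family genes that were tested (grey). Only the intervals of Efna4 and Efna5 lie wholly on one side of 0, and neither passed after adjustment over all genes.

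The size of most differences depended on which libraries were used. Without replicate 1 of both groups the log2 fold change of Epha5 was 0.35 and that of Ephb3 0.12, and without Slit2th replicate 1 alone they were 0.39 and 0.19. Epha7 fell to 0.02 without replicate 1 of both groups. Epha2, the member with the fewest counts, ran from 0.23 without replicate 3 of both groups to 1.81 without Slit2fl/fl replicate 2. Efna5 was at -1.45 without replicate 1 of both groups, and its adjusted p was 0.0152 in the edgeR fit of the remaining 4 libraries, the one fit among those tried in which a member passed. Over all the alternatives its adjusted p ran from 0.0152 to 0.841. In that fit 2.52% of all 11473 tested genes were called lower. Over all sets of libraries left out, the value stayed between -1.83 and -1.14 for Efna5 and between -2.17 and -1.12 for Efna4. Epha4 stayed between 0.73 and 1.13, whereas Ephb2, Efnb1 and Efnb2 changed sign.

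**Figure D5:**
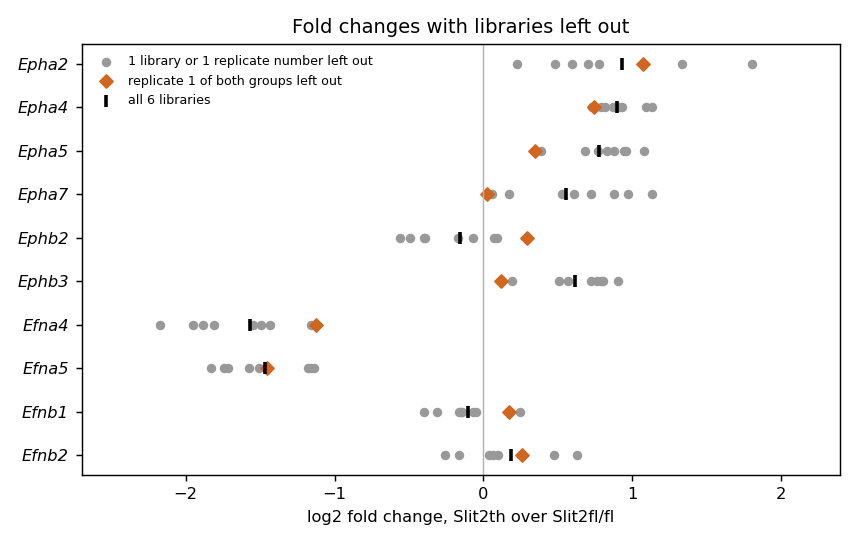
Log2 fold change of each of the 10 genes with all 6 libraries (black bar), with 1 library or 1 replicate number left out (grey) and with replicate 1 of both groups left out (orange diamonds). Efna4 and Efna5 stay below 0, and Epha2, Epha4, Epha5, Epha7 and Ephb3 above 0, wherever they were fitted. The lowest values of Epha7, Ephb3 and Epha2 are 0.02, 0.12 and 0.23. Ephb2, Efnb1 and Efnb2 lie on both sides.

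The other 12 genes of the family were low. Epha3 had no count in any library, and 4 of the 12, Epha3 among them with Epha8, Efna3 and Efnb3, stayed under 3 counts in every library. Efna2 and Ephb1 reached 3 counts in all 6 libraries. With 100 and 95 counts in total they were above the members Epha4 (76), Epha7 (59) and Epha2 (30), so the 10 genes are not the 10 highest of the family. Efna2, an A-class ephrin, stood at 5.76, 11.0 and 13.1 CPM in the controls against 7.06, 9.06 and 8.47 CPM after deletion, without the separation seen for Efna4 and Efna5. Ephb1, a B-class receptor, stood at 3.84, 23.3 and 5.69 CPM in the controls against 2.65, 11.9 and 5.08 CPM after deletion, and Ephb4, the venous partner of ephrin-B2, at 0.569 to 6.20 CPM over all libraries. Efna1 had 6, 2 and 1 counts in Slit2fl/fl and none in Slit2th, where 0 counts allow up to 1.43 to 2.65 CPM per library. These counts are at or near the floor. Efna1 did not pass the filter, so its difference was not tested. Of the 12, 6 were tested, with signs split 3 and 3 (median log2 fold change -0.11), and 0 passed either before or after adjustment.

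Genes that carry the signal inside the cell or cut the ligand were taken as a list of 43, of which 38 were tested. By edgeR's test 0 of the 38 passed after adjustment, as with the exact test and for the 31 to which DESeq2 gave an adjusted p, and 23 had fold changes above 0 and 15 below (median log2 fold change 0.24). Before adjustment, at p under 0.05, 1 was higher and 3 were lower, which is 10.5% of the list against 10.8% of all tested genes. The 3 with the highest level were Adam10, the protease that cuts ephrins from the surface (944 ± 328 CPM in the controls against 932 ± 121 in Slit2th, SD, n = 3 each), Cdc42, a small GTPase of the cytoskeleton (647 ± 155 and 766 ± 75.8 CPM), and Ngfr, the p75 neurotrophin receptor through which ephrin-A can signal in reverse (435 ± 152 and 547 ± 184 CPM, also counted among the glia markers). For each of these the libraries of the groups overlapped.

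The 4 partners with an unadjusted p under 0.05 were Vav2, Git1, Rhoa and Nck1. Vav2, a guanine nucleotide exchange factor recruited by Eph receptors, stood at 28.2, 11.7 and 10.8 CPM in the controls against 2.65, 3.34 and 3.39 CPM after deletion. Git1, an adaptor in ephrin-B reverse signaling, stood at 42.3, 10.4 and 7.96 CPM in the controls against 4.41, 6.20 and 5.64 CPM after deletion, with much of the gap in Slit2fl/fl replicate 1. Rhoa, the GTPase of growth cone collapse, stood at 149.5, 92.7 and 118.8 CPM in the controls against 85.6, 56.8 and 66.0 CPM after deletion. Nck1, an adaptor, was the one higher, at 11.5, 22.0 and 15.4 CPM in the controls against 25.6, 36.3 and 32.2 CPM after deletion. The groups did not overlap for 10 of the 38 partners, these 4 among them, with 6 higher and 4 lower, where 8.74% of all tested genes were higher and 9.72% lower. The adjusted p-values were 0.422 for Vav2, 0.424 for Git1, 0.459 for Nck1 and 0.462 for Rhoa.

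The genes whose profile over the 6 libraries came closest to that of Epha5 were Zfp867, Impa1 and Commd1. Their log2 CPM, each centred on its own mean, differed from that of Epha5 by a root mean square of 0.09, 0.14 and 0.15, where Epha5 itself varied by 0.50. With 6 libraries and 12152 genes such closeness is a description only.

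Markers of other cell types moved between the libraries as well. The 12 macrophage markers summed to 76.2, 62.9 and 27.3 CPM in the controls against 597, 108.8 and 125.3 CPM after deletion, and the 10 fibroblast markers to 2590, 3773 and 3104 CPM and to 3612, 4878 and 5401 CPM. The 9 proliferation markers summed to 325, 408 and 433 CPM in the controls against 169, 271 and 298 CPM after deletion, apart in the direction of Efna4 and Efna5. The 8 smooth muscle and pericyte markers summed to 67.1 to 170.7 CPM in the controls against 43.9 to 199.5 CPM in Slit2th. Slit2th replicate 1 was the highest for macrophage markers and the lowest for proliferation markers, as it was the highest for Epha5 and Ephb3 and the lowest for Efna4, Efna5 and Efnb2. The part of these cell types in the differences was not tested.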

How the data were processed

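The authors prepared libraries with the Illumina TruSeq kit, sequenced them on an Illumina HiSeq, aligned the reads with HISAT2 (to mm10 in the methods, while the labels list GRCm39) and deposited whole-number read counts per gene, not normalized. The counting program, strand setting and annotation release are not given in the sources used here.

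The tests ran in edgeR 4.0.16 under R 4.3.3 (genes with 1 CPM or more in 3 libraries or more, TMM, quasi-likelihood test without covariates, Benjamini-Hochberg over 12152 genes, threshold 0.05), with DESeq2 1.42.0 and edgeR's exact test as alternatives. The code was tested on simulated counts. Standard errors are the log2 fold change over the root of F, and intervals use the moderated degrees of freedom. Of 20173 identifiers, 20159 matched GENCODE M21 (GRCm38), which gave positions and lengths; promoter sequences are from RefSeq (GRCm38.p6).

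Other normalizations, filters, a replicate block and left-out libraries were also tried. The members, lists and tests were chosen with earlier results of these data known. Named genes were the 10 members, Slit2, the 3 highest and the unadjusted calls of the lists, marker sums, the 3 profiles nearest to Epha5, and genes at or near the floor named after their values were seen. Nothing says that the libraries came from separate mice, so p-values measure the spread between these samples. Replicate numbers are shared between the groups, and the titles number the libraries in a single run. For the glia list, 1 marker is not reported here, and the glia sums and counts leave it out.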

Additional observations from a re-analysis of the deposited data

How the results depend on the processing

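In each alternative fit other than that without replicate 1 of both groups, 0 of the members with an adjusted p passed, and 0 of the other family genes and 0 signaling partners with one passed in any. All 10 members had one except with DESeq2 (6), without replicate 2 of both groups (9) and with 1 CPM in all libraries (8). Over all genes, 34 passed with DESeq2, 17 with edgeR's exact test and 7 without a filter, against 0 in the fit reported, and between 0 and 377 with libraries left out, where 0 to 1 members passed. Members at an unadjusted p under 0.05 numbered 1 with library totals only and 1 with a CPM of at least 1 in all libraries, against 2, and 0 to 2 with libraries left out: 0 without Slit2fl/fl replicate 3 or without replicate 3 of both groups, and 1 without Slit2fl/fl replicate 1, Slit2th replicate 1 or 2, or replicate 1 or 2 of both groups. Partners by the same rule numbered 2 with DESeq2 and 2 with the exact test, against 4. With libraries left out they numbered 1 to 5: 1 without Slit2fl/fl replicate 1 or Slit2th replicate 3, and 2 without Slit2th replicate 2. The share of all tested genes by this rule is given for the fit reported only. The member and partner counts of the other fits therefore have no share beside them. Sign changes occurred with libraries left out only, over ranges of -0.56 to 0.29 for Ephb2, -0.40 to 0.25 for Efnb1 and -0.26 to 0.63 for Efnb2. The causes were not tested.

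Same-numbered libraries had correlations of their deviations from the group means of 0.290, 0.242 and 0.0795. Those of differently numbered libraries ran from -0.309 to 0.252. With so few libraries these values cannot tell whether the numbers pair them. With the replicate block, 0 members passed after adjustment, and Efna5 had a log2 fold change of -1.49. In that fit 7 partners had an unadjusted p under 0.05. The share of all tested genes under it is not given for that fit, so this count is not read as a result about the partners. With 30 to 76 counts in total, Epha2, Epha4 and Epha7 are limited by depth.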
